A study of Saccharomyces cerevisiae with 30 samples.

Results

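FLO11 (YIR019C, listed in the deposited expression table under its older name MUC1) encodes the cell surface adhesin of filamentous growth in the yeast Saccharomyces cerevisiae. It is 1 of the 6450 genes in the authors' deposited p-value table and was taken by its locus tag. In the deposited coordinates, printed here as counted from 1, the gene spans positions 372339 to 375971 of chromosome 9, a length of 3633 bp on the minus strand. The region described here is the 4000 bp upstream of its start codon, positions 375972 to 379971, read in 20 steps of 200 bp, together with the gene body. The labels and headers used here do not name the genome build of these coordinates. No genome of the files' build was at hand, so no sequence is shown.

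The data were 28 libraries of Ty5 calling cards, 1 for each of 28 transcription factors, and 2 polyA RNA-seq libraries, of which 1 came from cells in rich medium and 1 from cells starved of nitrogen. The strain was Σ1278b according to the series' design text, a laboratory background that can grow as filaments. In the calling card method a factor fused to Sir4 directs Ty5, a retrotransposon, to insert near the place where the factor is bound, and the insertion stays as a mark. Per the labels' protocols all 28 libraries came from cells of a synthetic medium low in ammonium, induced in 2% galactose. The insertions were thus collected in 1 condition. Whether galactose changed the level of the factors was not tested. The labels name no deletion and give no replicate, age or separate culture. No library of a strain without a fused factor was used here, so each library was set against the 27 others.

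FLO11 has one of the long regulatory regions of the yeast genome, onto which several signalling pathways converge. Protein kinase A acts through the activator Flo8 and the repressor Sfl1, which compete at the promoter. The filamentation MAP kinase pathway acts through Ste12 and Tec1, held back by Dig1. Flo8 works with Mss11 and Mfg1, Mit1 is a further activator of filamentous growth, and Nrg1 and Sok2 are repressors of FLO11. Upstream of FLO11 a pair of noncoding RNAs, ICR1 and PWR1, are transcribed from opposite strands and are known to toggle FLO11 between silenced and active states. The RefSeq table of another strain lists both between FLO11 and the next gene, and their coordinates were not used here.

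The libraries held 401017 insertion records with 62462318 reads, from 2836 to 41619 records a library with a median of 12128.5. A record is 1 line of a deposited list, with a position and a read count, and some positions are listed more than once in 1 library. Records at 1 position were counted separately unless stated, although they may not be independent. Intervals are exact at 95% and cover counting error only. With 1 library a factor, each test compares libraries and not conditions. How deeply the RNA libraries were sequenced is unknown, since only RPKM (reads scaled to gene length and to the mapped reads of the library) was deposited.

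FLO11 RNA was lower in the nitrogen-starved library than in the rich one. Its level was 161.3 RPKM in rich medium and 54.95 RPKM in nitrogen-starved medium, 2.94-fold less. On the scale of log2(RPKM + 1), which was used for all changes and understates those of low genes, its change was -1.54, against a median of 0.01 over the features with at least 5 RPKM in 1 medium. In order of level FLO11 went from place 1211 to place 3006 of 6932 features, and it was 110th from the most lowered of 6122 features with at least 5 RPKM. The background was 4.05% of those features at least 2-fold lower and 10.8% at least 2-fold higher. With 1 library a medium the change has no replicate check and no test. How reads that match the repeats of FLO11 in more than one place were counted is not stated in the labels or headers.

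The other flocculins, cell wall lectins that make cells stick to each other, were low in both media. FLO1 had 3.49 and 3.05 RPKM, FLO9 had 3.71 and 3.09, FLO10 had 5.57 and 5.64 and FLO5 had 7.52 and 9.45 in rich and starved medium. Of the 3 flocculins that reached 5 RPKM, FLO11 alone was past 2-fold, and their median log2 change was 0.02. FLO11 was thus the flocculin with the most RNA per length in each library.

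Among 14 genes of FLO11 activators, TEC1 (104.1 to 235.2 RPKM, log2 change 1.17) and PHD1 (25.3 to 62.9 RPKM, 1.28) were at least 2-fold higher in the starved library. MGA1, a gene of the heat shock factor family linked to filamentation, was lower (16.1 to 4.02 RPKM, -1.76). The other 11 activators were under 2-fold, among them FLO8 (34.4 and 31.4 RPKM), MSS11 (17.8 and 29.1), MFG1 (21.9 and 31.3), MIT1 (89.2 and 106.2) and STE12 (80.3 and 78.4). The median log2 change of the list was 0.24.

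Of 10 genes of FLO11 repressors, NRG1, which encodes a zinc finger repressor that responds to carbon source, was higher in the starved library, at 77.5 against 15.1 RPKM (log2 change 2.29). SFL1 had 46.3 RPKM in rich and 89.3 in starved medium (0.93), but its deposited coordinates are merged with those of an overlapping gene, so this value is uncertain. SOK2 had 69.8 and 86.8 RPKM and DIG1 144.9 and 128.6 RPKM. The 9 repressors other than NRG1 were under 2-fold, and the list's median was 0.16. Of 15 genes of the upstream signalling pathways, 2 were higher. These were MEP2, the ammonium permease that also acts as a sensor for filamentation (13.5 to 978.7 RPKM, 6.08), and MSB2, the surface mucin that feeds the filamentation MAP kinases (195.7 to 432.2 RPKM, 1.14). The list's median was 0.18 and none of its genes was 2-fold lower.

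**Figure D1:**
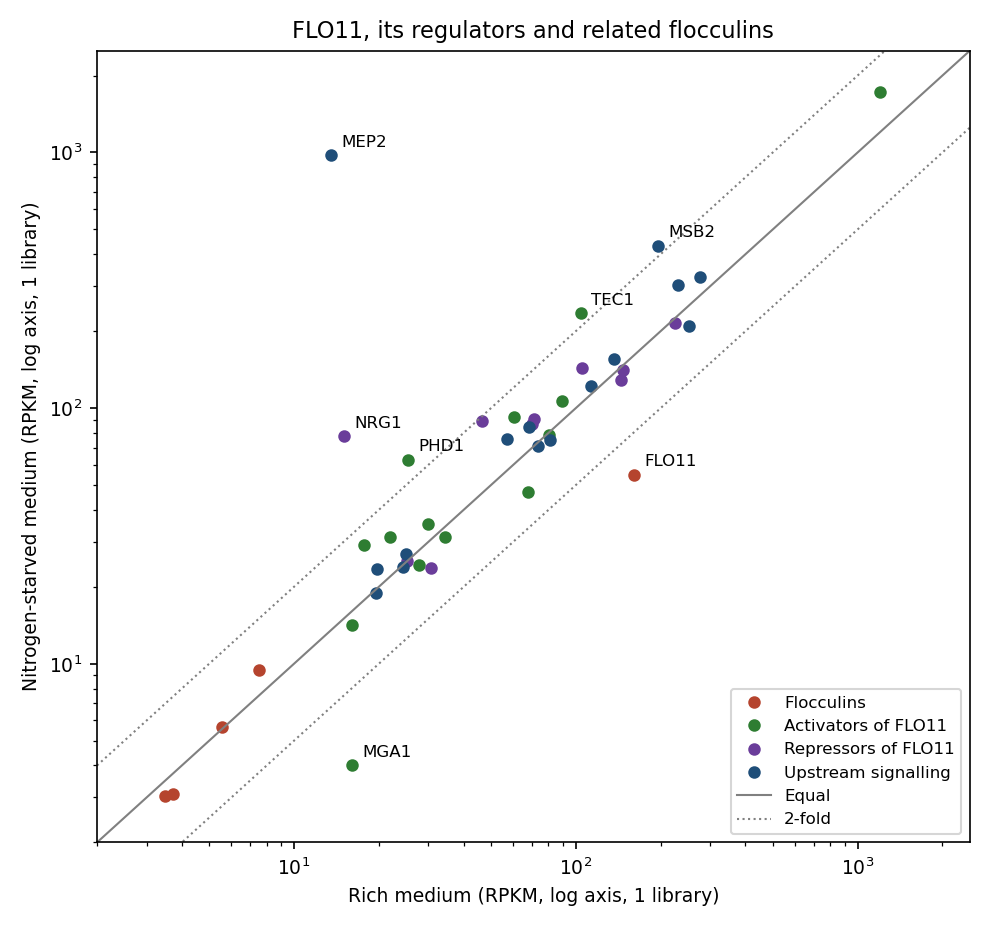
RPKM in rich medium (horizontal) against nitrogen-starved medium (vertical), both on log axes, for the flocculins and the lists of FLO11 activators, repressors and upstream signalling genes, 1 point a gene and 1 library a medium. FLO11 lies below the lower 2-fold line with MGA1, while MEP2, NRG1, PHD1, TEC1 and MSB2 lie above the upper one.

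The upstream region of FLO11 is long and nearly free of named genes. The next gene with a symbol, MRS1, which encodes a mitochondrial splicing factor, starts 3558 bp upstream, and the gap of 3557 bp was the 149th longest upstream of 5193 genes with a symbol, whose median was 476 bp. A pair of short features without a symbol lies within it. YIR020C is 586 to 888 bp upstream, with 34.9 RPKM in rich and 25.3 in starved medium, and YIR020W-A is 1263 to 1503 bp upstream, with 16.1 and 20.5 RPKM. MRS1 (33.7 and 46.1 RPKM) and YIR020C-B (7.32 and 10.7 RPKM) carry the same merged coordinates in the deposited table, so their values are uncertain. Downstream of FLO11 the next feature was YIR018C-A (204.4 and 169.6 RPKM). No feature next to FLO11 or upstream of it changed by 2-fold between the media.

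The 28 libraries together placed 1500 records (Poisson interval 1425 to 1578) at 674 positions in the 4000 bp, or 375 per kb. The median over 6444 genes with coordinates was 20.25 per kb, and FLO11 was 81st in that order. Mit1 alone held 762 of the records, and the 738 of the other libraries put FLO11 181st. The FLO11 body, in contrast, held 9 records (4.12 to 17.1), or 2.48 per kb, where the median body of 5234 genes with coordinates of their own held 6.95 per kb and 18.25% of them held as little as FLO11 or less. The records in the body belonged to 5 libraries. Mit1 had 4, at 388, 3501, 3517 and 3567 bp from the start codon and so 3 of them near the end of the gene, Phd1 had 2, and Flo8, Rtg1 and Sfl1 had 1 each. All 9 lay within 388 bp of the start codon or from 3253 bp onward, with none between. How insertions in the repeats of FLO11 were placed is not stated in the labels or headers. Whether the repeats lowered the count in the body was not tested. Set against the other 27 by Fisher's exact test, no library had more records in the body, with Benjamini-Hochberg adjustment over all gene-library pairs, of which 0.249% were called. The Mit1 library, the 1 library at an unadjusted p under 0.05, had an adjusted p of 0.0758 in this test, and was called when records with 1 read were left out.

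Within the upstream region the records lay away from the start codon. From the start codon outward, the first 5 steps of 200 bp held 3, 14, 44, 127 and 248 records, and the next 5 held 409, 231, 214, 120 and 40. The step at 2000 to 2200 bp held 17, and no step beyond it held more than 12. The fullest step was thus 1000 to 1200 bp upstream, and without Mit1 it was 1400 to 1600 bp, with 145 of 738 records.

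Divided by these counts, so after they were seen, the first 400 bp held 17 records (9.90 to 27.2) from 6 libraries, the stretch from 400 to 2200 bp held 1450 (1376 to 1527) from 26 libraries, and the stretch from 2200 to 4000 bp held 33 (22.7 to 46.3) from 18. The middle stretch had 806 records per kb, or 96.7% of the region. Within the far stretch, 12 records of 9 libraries lay 3400 to 3557 bp upstream, directly before MRS1, and steps on either side held 0 and 2. For Msn4 (2 records) and Rgm1 (1 record) these were all the records in the region.

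The records of FLO11 were sparse next to the start codon and dense just beyond. Over all genes, the step at 200 to 400 bp was the fullest with 9.94% of the records, and the first 400 bp held 17.9% of the records in the 4000 bp, against 1.13% at FLO11. Of the 1165 genes with at least 200 records, 74 had a share in the first 400 bp at or under that of FLO11, and the median of the 1165 was 10.9%. The first 1200 bp, in contrast, held 56.3% of the records at FLO11 and 43.3% over all genes. Libraries differed in this. The shares at FLO11 and over all genes were 66.3% and 41.6% in Mit1 and 63.6% and 39.3% in Sfl1. They went the other way in Sok2, with 30.6% and 45.15%, and in Nrg1, with 18.2% and 43.8%. In the libraries other than Mit1 together, 53.9% of the FLO11 records lay beyond 1200 bp. In the Mit1 library the first 400 bp held 13.9% of the records over all genes and 0.26% at FLO11, in Sok2 10.2% and 0%, and in Sfl1 16.6% and 5.35%. Windows of neighbouring genes overlap, so records in a window of 4000 bp may belong to another gene's promoter.

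**Figure D2:**
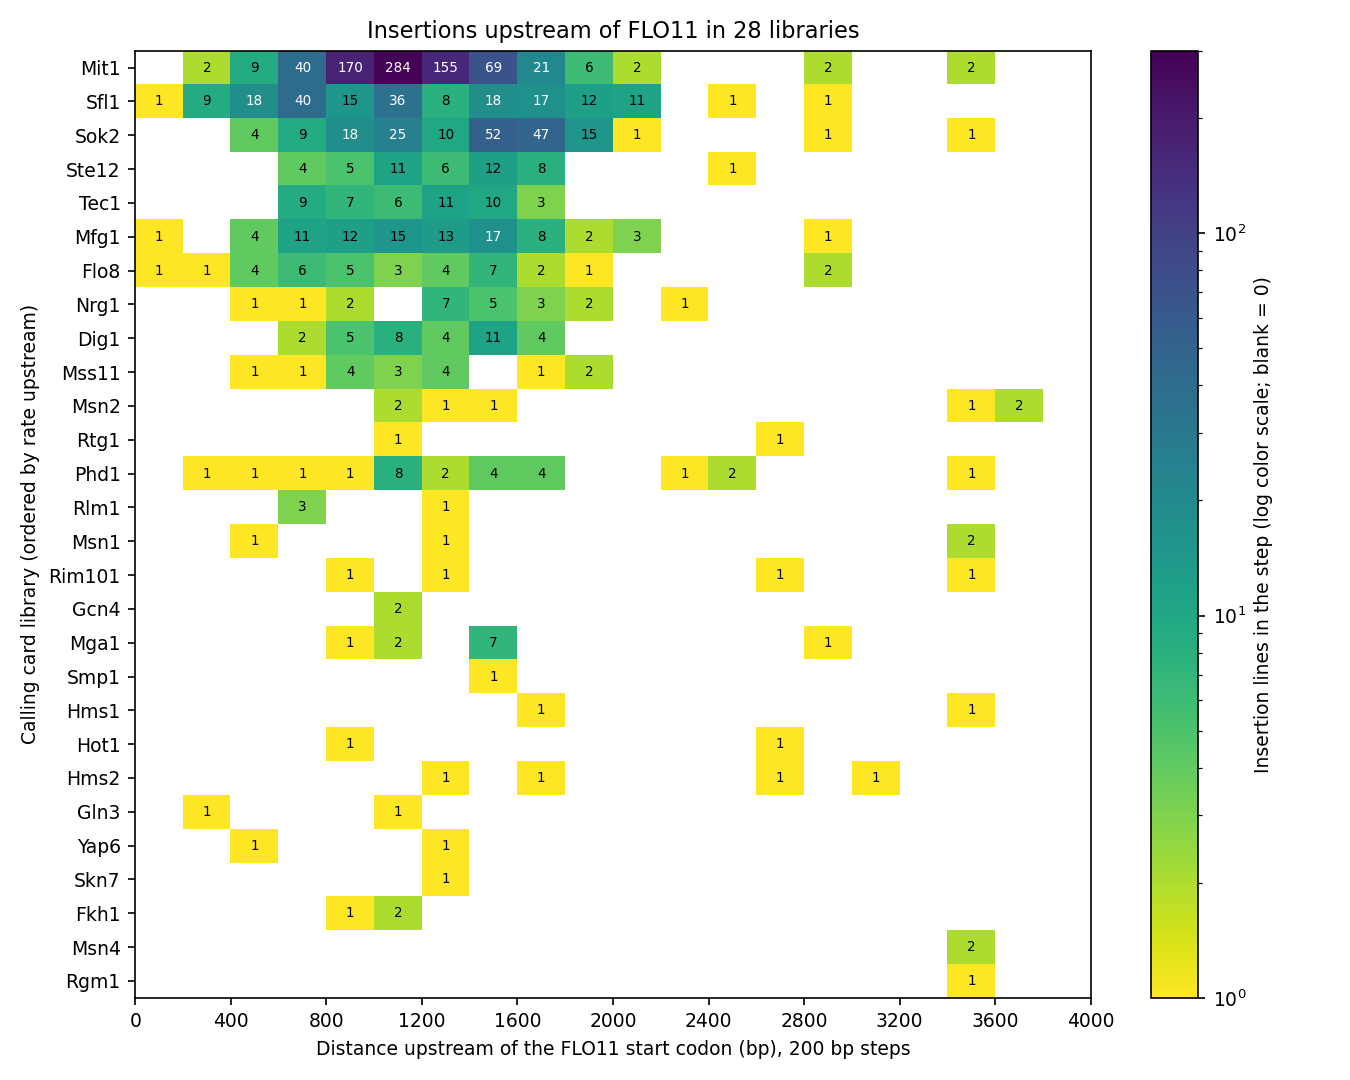
Insertion records in each 200 bp step (horizontal, distance upstream of the FLO11 start codon in bp) for each of the 28 libraries (vertical, ordered by rate in the region), with the number printed and shaded on a log color scale, blank where 0. Nearly all records lie between 400 and 2200 bp, and a thin column at 3400 to 3600 bp is shared by 9 libraries.

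Libraries differed widely in how much of each lay upstream of FLO11. Mit1 had 53.4 records per 1000 (49.8 to 57.3), Sfl1 18.3 (15.8 to 21.1) and Sok2 12.2 (10.5 to 14.1). Below them Ste12 had 2.48 (1.83 to 3.30), Tec1 2.42 (1.77 to 3.23), Mfg1 2.14 (1.71 to 2.63), Flo8 1.95 (1.36 to 2.70) and Nrg1 1.77 (1.11 to 2.67), whose intervals overlap. Dig1 had 1.32 (0.91 to 1.84), Mss11 1.21 (0.69 to 1.96) and Phd1 0.62 (0.41 to 0.92). The remaining 17 libraries had 1 to 11 records each, and Rgm1 was at the bottom with 0.12 per 1000 (0.0029 to 0.64).

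Fisher's exact test, two-sided, with Benjamini-Hochberg adjustment over all 180432 gene-library pairs, called 3 libraries higher than the other 27, where 2.51% of all pairs were called higher, and 1.33% of genes in the Mit1 library, 2.31% in Sfl1 and 1.82% in Sok2. Mit1 was 28.01 times the rate of the others (25.3 to 31.0), Sfl1 5.46 times (4.66 to 6.37, adjusted p = 1.30e-67 by Fisher's exact test) and Sok2 3.59 times (3.06 to 4.19, adjusted p = 3.79e-41). The test called 24 libraries lower, against 3.64% of all pairs, and did not call Rtg1 (Fisher's exact test, adjusted p = 0.0519). Mit1, with 762 of the 1500 records, is in the pool against which those 24 were set, and with Mit1 left out 11 were lower. Against the other libraries without Mit1, Sfl1 was 12.5 times, Sok2 8.20 times, Ste12 1.32 times (0.96 to 1.78), Tec1 1.29 times (0.93 to 1.73), Mfg1 1.14 times (0.90 to 1.42) and Flo8 1.02 times (0.71 to 1.43) the rate of the rest. With Mit1, Sfl1 and Sok2 all left out, an alternative chosen after seeing the data, 4 libraries were higher and 7 lower. The 4 were Ste12, Tec1, Mfg1 and Flo8, with odds ratios of 2.66, 2.58, 2.44 and 2.02. Their median position upstream of FLO11 had 1 read, or 3 in Mfg1.

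Within each library the FLO11 region also stood at a different place among the 6444 genes. It had the 2nd most records of the Mit1 library, the 16th most of Sfl1 and the 37th most of Sok2. It was 89th in Tec1, 95th in Ste12, 148th in Dig1, 159th in Flo8, 184th in Mfg1, 283rd in Nrg1 and 311th in Mss11. In Phd1, the library with the most records in all, it was 1265th, and in Mga1, the third largest, 2326th.

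**Figure D3:**
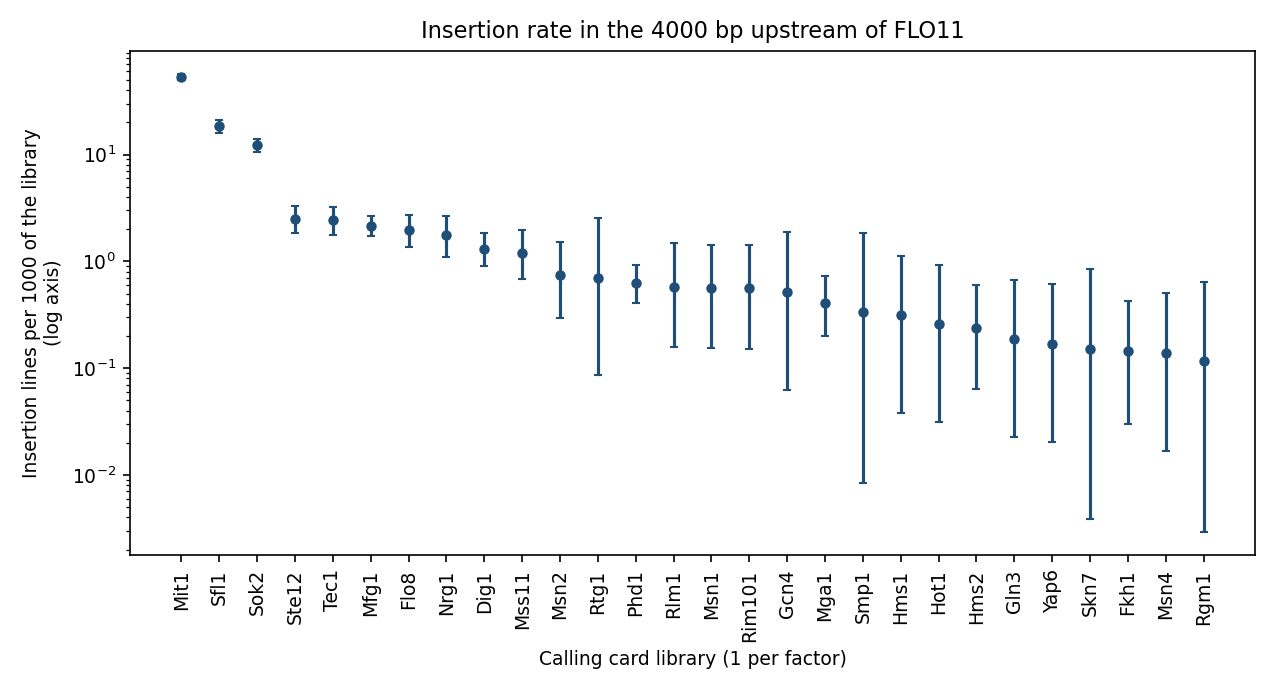
Insertion records in the 4000 bp upstream of FLO11 per 1000 records of the library (vertical, log axis) for the 28 libraries, with exact 95% intervals for counting error. Mit1, Sfl1 and Sok2 lie above the rest, with 53.4, 18.3 and 12.2 per 1000.

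Mit1, a member of the WOPR family of fungal regulators, had a single broad peak. Its steps from 400 to 2000 bp held 9, 40, 170, 284, 155, 69, 21 and 6 records, with the median record 1129 bp upstream. In records, the step at 1000 to 1200 bp, with 284 (251.9 to 319), was clear of its neighbours. Its lead was smaller in distinct positions, of which the steps from 800 to 1400 bp held 97, 134 and 91. Mit1 records often repeated: of its 441 positions 184 were listed at least 2 times and none more than 6 times, so repeats made up 42.1% of its records here and 27.4% in its whole library. Counted once per position, the odds ratio for more records at FLO11 was 22.0 in place of 29.5, and the call stood.

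Sfl1, the repressor that opposes Flo8, was spread more widely. Its steps from 200 to 2200 bp held 9, 18, 40, 15, 36, 8, 18, 17, 12 and 11 records. Its fullest step was 600 to 800 bp, over the YIR020C feature, with 40 (28.6 to 54.5), and 1000 to 1200 bp followed with 36. The 10 records in its first 400 bp were 10 of the 17 that all libraries had there. At 2000 to 2200 bp it held 11 of 17 records. Few of its positions repeated (7 of 180).

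Sok2, an APSES-family factor related to Phd1, had most of its records farther out. Its steps from 400 to 2000 bp held 4, 9, 18, 25, 10, 52, 47 and 15 records, so the counts fell to 10 at 1200 to 1400 bp between a smaller and a larger group. The smaller group had fewer reads. The median position had 3, 13 and 3 reads in the steps from 600 to 1200 bp, and 29 and 33 in those from 1400 to 1800 bp. A different library had at least 10 times as many reads at 20 of 49 Sok2 positions nearer than 1200 bp and 20 of 98 beyond. The step at 1400 to 1600 bp held 52 (38.8 to 68.2) and the median record lay 1536 bp upstream. Sfl1 had a low step at the same place, with 8 records between 36 and 18, whereas Mit1 had 155 there. At 1600 to 1800 bp Sok2 held 47 records and Mit1 21, although Mit1 had over 4 times as many in the region.

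The share of records beyond 1200 bp was tested in the 10 libraries with at least 20 records upstream of FLO11, each against the other 27. The same test over all genes and libraries with at least 20 records called 15.8% of 7419 pairs, 7.72% with a higher and 8.03% with a lower share. Sok2 had 69.4% of its records beyond 1200 bp (62.2 to 76.0) against 40.1% in the others (Fisher's exact test, adjusted p = 8.26e-12). Nrg1 had 81.8% (59.7 to 94.8), which is 18 of 22 records, against 43.1% (Fisher's exact test, adjusted p = 0.0055), but without Mit1 in the pool it was not called (Fisher's exact test, adjusted p = 0.069). Mit1 was lower, with 33.7% (30.4 to 37.2) against 53.9% (Fisher's exact test, adjusted p = 3.04e-13).

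Sfl1 had 36.4% beyond 1200 bp (29.5 to 43.7) against 44.7% and was not called (Fisher's exact test, adjusted p = 0.16). It was called lower with each position counted once (adjusted p = 0.037) and without Mit1 in the pool (Fisher's exact test, adjusted p = 1.17e-06). The other libraries tested had shares between 44.4% for Flo8 and 57.4% for Ste12 and were not called. These calls depend on where the region is divided: at 2000 bp, 1 library was called, Mit1, and the odds ratio of Sok2 turned from 3.39 to 0.45, since 3 of its 183 records lay beyond 2000 bp.

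**Figure D4:**
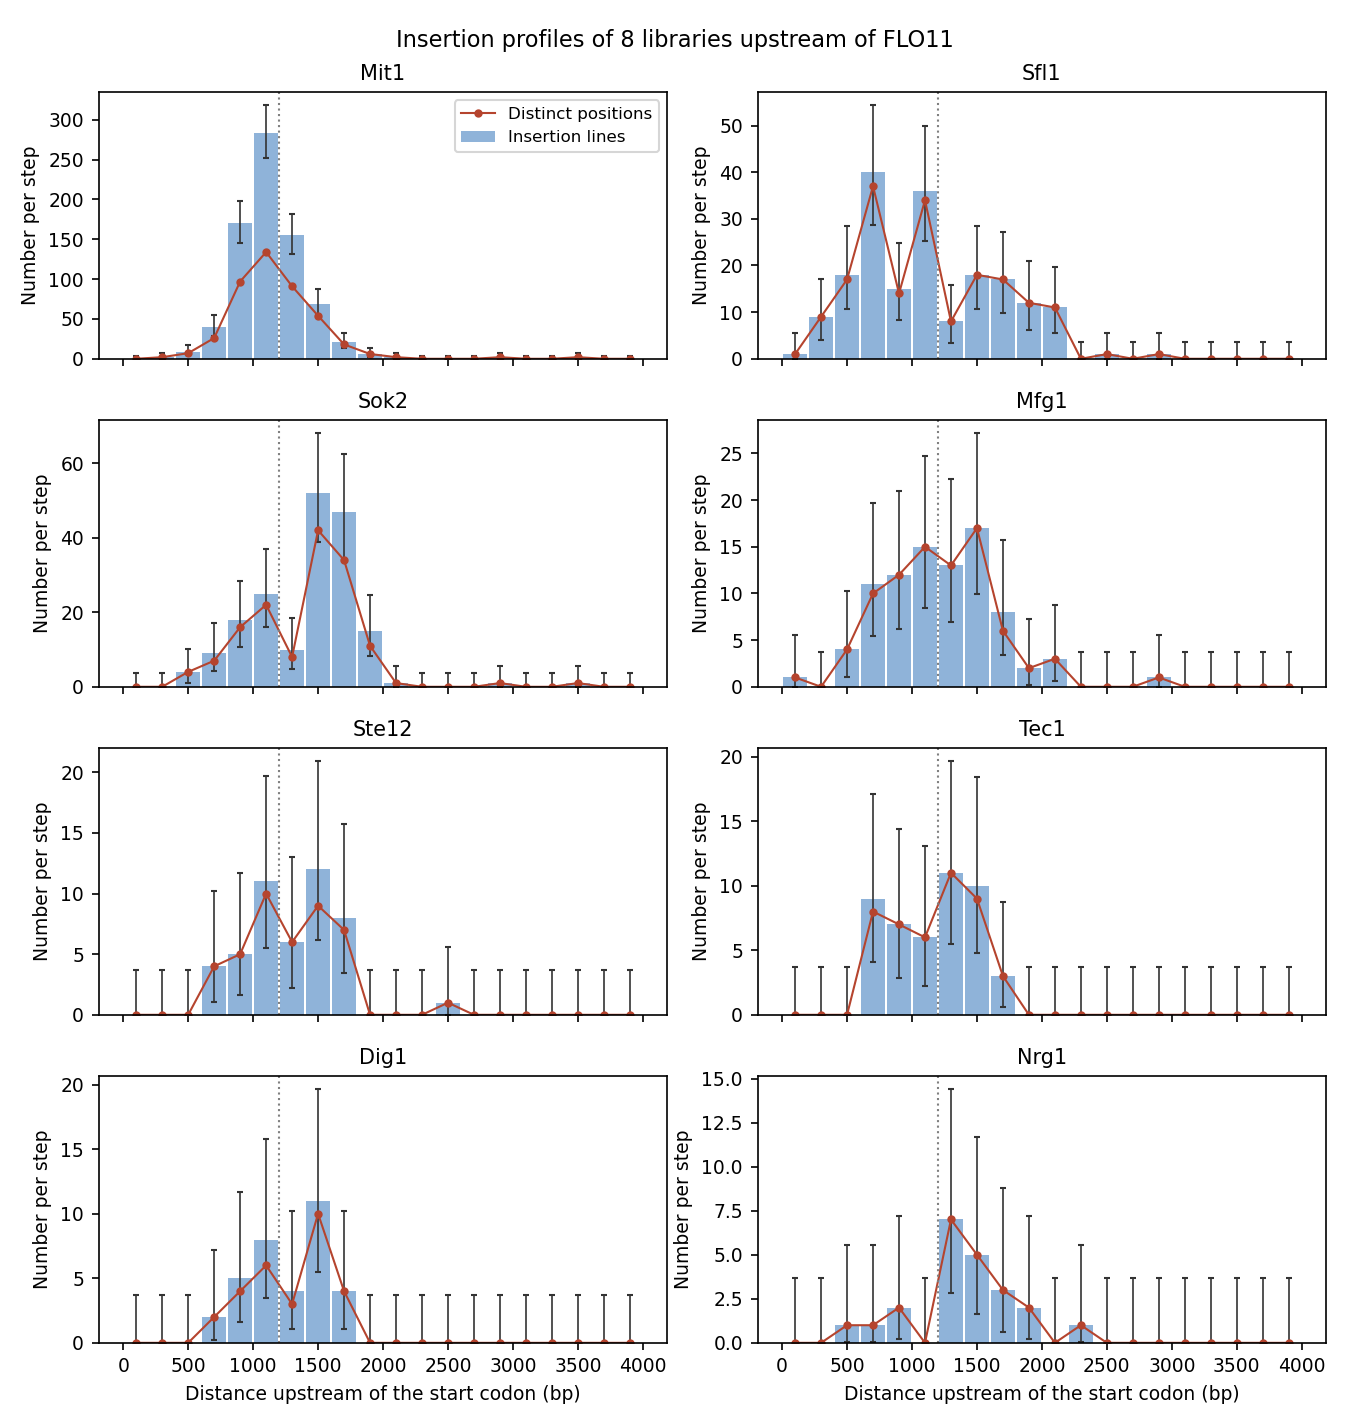
Insertion records (bars, with exact Poisson 95% intervals) and distinct positions (line) in each 200 bp step upstream of the FLO11 start codon, in bp, for 8 libraries, each with its own vertical scale from 0. The dotted line marks 1200 bp. Mit1 peaks at 1000 to 1200 bp, Sok2 at 1400 to 1600 bp, and Sfl1 has 40 records at 600 to 800 bp and 36 at 1000 to 1200 bp.

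Flo8 and its partners had far fewer records. Flo8, the activator under protein kinase A, had 36 records at 36 positions, 1 to 7 in each step from 0 to 2000 bp and 2 at 2800 to 3000 bp. Mfg1 had 87 records, with 11, 12, 15, 13 and 17 in the steps from 600 to 1600 bp. Mss11 had 16 records, all between 400 and 2000 bp. The median record lay 1091 bp upstream in Flo8, 1228 bp in Mfg1 and 1190 bp in Mss11, and no step of Mss11 held more than 4.

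The records of the filamentation MAP kinase pathway libraries lay in a narrower stretch than those of Flo8 and Mfg1. Ste12 had 47 records, of which all but 1 lay between 600 and 1800 bp, with 4, 5, 11, 6, 12 and 8 in those steps. Tec1, which binds DNA together with Ste12, had 46, all between 600 and 1800 bp, with 9, 7, 6, 11, 10 and 3. Dig1, the inhibitor of Ste12, had 34 there, with 2, 5, 8, 4, 11 and 4. Within each of these 3 libraries the counting intervals of the fullest and the least filled of the steps from 600 to 1800 bp overlapped. Many of these positions were not particular to their library. Nearer than 1200 bp, a different library had at least 10 times as many reads at 18 of 19 Ste12 and 21 of 21 Tec1 positions. For Dig1 this held at 4 of 12 positions there.

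Among the other factors linked to FLO11, Nrg1 had 1, 1, 2, 0, 7, 5, 3 and 2 records in the steps from 400 to 2000 bp and 1 beyond. Phd1, the activator related to Sok2, had 26 records, of which 8 lay at 1000 to 1200 bp and 4 beyond 2200 bp. Mga1 had 7 of its 11 records at 1400 to 1600 bp, in the step where Sok2 peaked. The 18 libraries with under 20 records held 70 in all.

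The reads behind these records differed between libraries. Upstream of FLO11 the median position of Mit1 had 40 reads and that of its whole library 8, and Sok2 had 18 and 5, Dig1 97 and 28, and Phd1 31.5 and 19. Sfl1 had 40.5 reads here and 46 in its library. In contrast the median position had 1 read in Ste12, Tec1, Flo8, Nrg1 and Mss11, whose library medians were 7, 7, 8, 6 and 10, and 3 reads in Mfg1, whose library median was 17. The median position upstream of FLO11 thus had fewer reads than that of the whole library in these 6 libraries. It had more in Mit1, Sok2, Dig1 and Phd1. Fewer reads were also seen in Mga1 (7 and 23) and in some libraries with few records here, such as Skn7 (1 and 14) and Msn4 (2.5 and 20). Others with few records had more, such as Rim101 (74 and 19). Fewer reads were thus not particular to factors known to act at FLO11.

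Many of these positions were also positions of a library with more reads. Of the 674 positions, 423 were found in 1 library, 251 in at least 2 and 20 in at least 5, and the one at 1384 bp was found in 8. A different library was at least 10 times richer in reads at 35 of the 42 Ste12 positions, 37 of 44 for Tec1, 28 of 36 for Flo8, 14 of 16 for Mss11, 17 of 22 for Nrg1 and 47 of 84 for Mfg1. The richest library there was Mit1 at 29 of the 35 Ste12 positions and 34 of the 37 Tec1 positions. The same count was 6 of 29 for Dig1, 7 of 26 for Phd1, 24 of 180 for Sfl1, 40 of 147 for Sok2 and 31 of 441 for Mit1. Such positions were not counted over the whole libraries, so whether these shares are particular to FLO11 was not tested.

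Dig1 was therefore unlike Ste12 and Tec1 in reads, although its records lay in the same steps. Its position with the most reads was 1544 bp upstream, with 1392 reads. Tec1 had 740 reads at 1566 bp and Ste12 328 at 1565 bp, the position with the most reads in each. Over the 20 steps, Spearman's rho between Tec1 and Dig1 was 0.96 for records and 0.58 once positions richer elsewhere were left out. Between Tec1 and Mit1 it went from 0.81 to 0.33, between Flo8 and Mfg1 from 0.88 to 0.10, and between Ste12 and Mit1 from 0.73 to 0.40. Between Sok2 and Mit1 it was 0.93 and 0.90, and between Mit1 and Sfl1 0.85 and 0.86. All libraries share the empty ends of the region, and the steps are few, so these are descriptions.

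With positions richer elsewhere left out of all libraries, the odds ratios upstream of FLO11 were 48.6 for Mit1, 5.56 for Sfl1 and 4.17 for Sok2. This setting keeps 410 of the 441 Mit1 positions and removes those of other libraries where Mit1 is rich, so it is no check of these calls. When Mit1, Sfl1 and Sok2 were also left out, an alternative chosen after seeing the data, Mfg1 (38 records, odds ratio 2.53, Fisher's exact test, adjusted p = 0.00036) and Dig1 (28 records, 2.58, adjusted p = 0.0024) were higher, and Flo8 (1.22), Ste12 (1.19) and Tec1 (0.99) were not called. Positions were removed by reads while Mit1, Sfl1 and Sok2 were still counted. This kept 23 of 29 positions for Dig1 and 37 of 84 for Mfg1. It kept 8 of 36 for Flo8, 7 of 42 for Ste12 and 7 of 44 for Tec1. The calls of Mfg1 and Dig1 thus depend on that selection, and the setting is no check of them. How records with 1 read that coincide with richer positions of another library arose was not tested.

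Sok2 and Mit1 shared 78 positions. Nearer than 1200 bp, where Mit1 had 266 positions, 39 of the 49 Sok2 positions were also Mit1 positions. Beyond 1200 bp, where Mit1 had 175, 39 of the 98 Sok2 positions were.

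**Figure D5:**
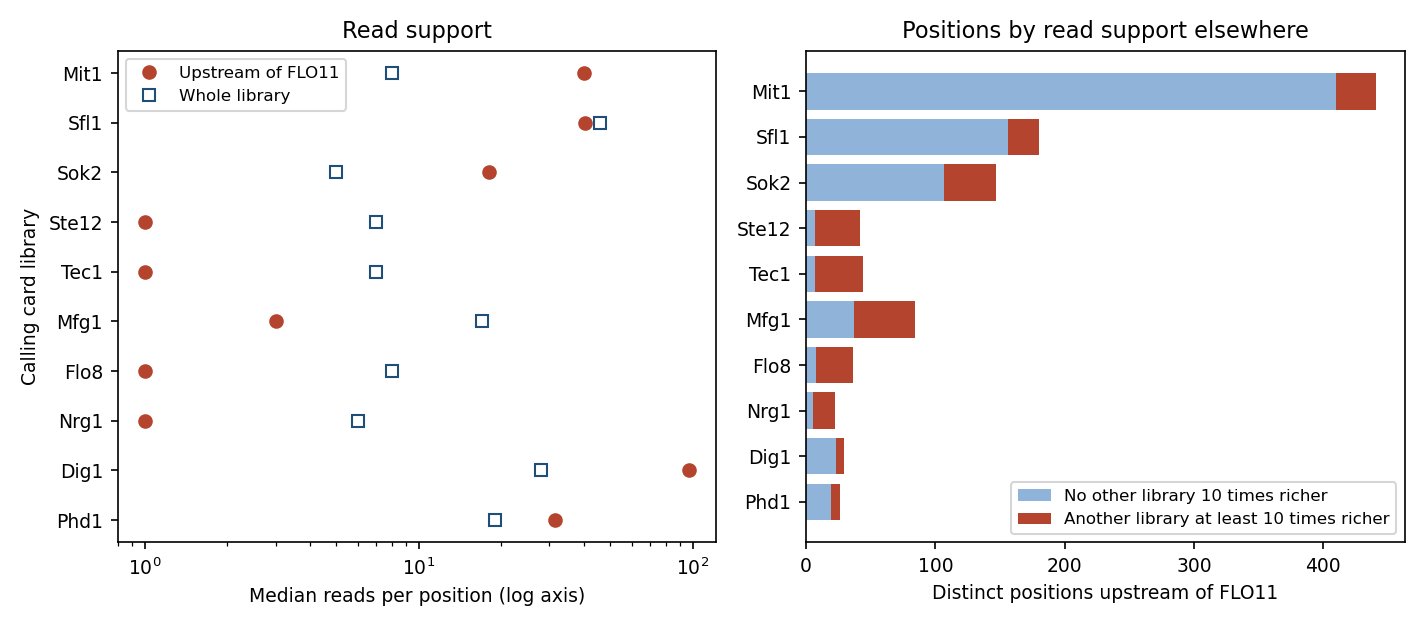
Left, the median reads per position (log axis) upstream of FLO11 (filled circles) and in the whole library (open squares) for the 10 libraries with at least 20 records. Right, the number of positions upstream of FLO11 at which a different library was at least 10 times richer (red) or was not (blue); Ste12, Tec1, Flo8 and Nrg1 sit at 1 read and are mostly red.

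The authors' deposited table, whose window and test are not stated, gave FLO11 a p-value at or under 0.001 in 7 libraries, Flo8, Mfg1, Sok2, Ste12, Tec1, Mit1 and Sfl1. Of these, Flo8, Ste12 and Tec1 had a median of 1 read per position in the 4000 bp. Over all genes and libraries 0.879% of the deposited p-values were that low, and 0.822% of genes were called by at least 7 libraries in the authors' deposited table. For YIR020C, whose own upstream side reaches from 888 bp outward, 9 libraries were called in the authors' deposited table, the same 7 with Nrg1 (2.08e-05) and Dig1 (1.69e-08). At FLO11 the authors' deposited table gave Nrg1 0.738 and Dig1 0.0525. YIR020W-A, read from the opposite strand, was called by the same 7 libraries as FLO11 in the authors' deposited table, and MRS1 and YIR020C-B by none. The upstream side of YIR020W-A faces FLO11, so both share the stretch between them. In the authors' deposited table both had 5.39e-05 for Ste12, 5.99e-06 for Tec1 and 0.738 for Nrg1. Their values differed in Flo8, Mfg1, Dig1 and Msn2. The calls of YIR020W-A are thus not separate from those of FLO11. Nrg1 and Dig1, whose median records lay 1452 and 1329 bp upstream of FLO11, were called for YIR020C and not for FLO11 in the authors' deposited table.

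The 5 genes outside the region whose upstream records over the 28 libraries were most like those of FLO11 lay at 2 loci. Over 5955 genes with at least 28 records, the Pearson correlation with FLO11 of log2 records per 10000 of the library (with 0.5 added) was 0.84 for YDL034W, 0.83 for PRM7 and 0.83 for BSC1. These 3 have overlapping windows at 1 locus of chromosome 4, with 623 to 625 Mit1, 551 to 552 Sfl1 and 13 to 15 Sok2 records. The next were YAR047C (0.82) and FLO1 (0.77), at 1 locus of chromosome 1, with 366 and 399 Mit1, 26 Sfl1 and 15 and 18 Sok2 records. FLO11, with 762, 187 and 183, thus had more Sok2 records than either locus. FLO1 is the main flocculin of sedimenting yeast, and its RNA was at 3.49 and 3.05 RPKM in rich and starved medium. Genes whose windows overlap that of FLO11 were left out of this order, and the correlations are descriptions over libraries that share their medium and method.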

How the data were processed

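Per the labels' protocols, DNA of His+ FOA-resistant colonies was cut in 3 separate digests, self-ligated, amplified outward from Ty5 and sequenced on a HiSeq. The RNA libraries carry the same protocol text. Aligners, filters and builds were not given in the sources used here. Each deposited list gives chromosome, position and read count per insertion, taken as such from the values, with no header. The authors deposited 1 p-value per gene and library, by a test not stated, and RPKM per feature, per the file headers. Gene starts were taken as counted from 0 in the deposited coordinates and are printed from 1. Insertion positions were used as listed, with nothing added. If the lists count from 0, the printed distances of insertions are off by 1 bp.

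Records were counted in the 4000 bp upstream of 6444 genes with coordinates, with strand from the locus tag. Fisher's exact test, with the one-sided p doubled, set each library against the other 27, adjusted by Benjamini-Hochberg over all gene-library pairs and called at 0.05. Both tests were tried on simulated counts drawn independently. Such counts hold no repeated records and no positions shared between libraries, so they do not show how the tests behave with these. Intervals are exact (Poisson, or Clopper-Pearson for shares). Python 3.11.15, scipy 1.17.1 and pandas 2.3.3 were used. For gene symbols the locus tags were matched to RefSeq R64, with 5817 genes found. Named genes were FLO11, its neighbours, the 5 genes most alike and the regulator lists. The gene and the lists were chosen with earlier results of these data known. RPKM does not keep whole reads, so no count test was run.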

Additional observations from a re-analysis of the deposited data

How the results depend on the processing

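The 3 higher libraries upstream of FLO11 stayed 3 with each position counted once, with at least 2 reads, with windows of 1200 or 2000 bp and with Bonferroni adjustment, while the number lower ranged from 18 to 24. With each position counted once, Flo8, Mfg1, Ste12, Tec1 and Nrg1 were no longer called lower. Their odds ratios were then 0.70, 0.87, 0.93, 0.96 and 0.57. The setting without positions richer elsewhere favours libraries already rich there and is no check of them. Leaving each other library in turn out of the pool and of the libraries tested gave 2 to 3 higher and 22 to 24 lower. The 2 came where Sok2 or Sfl1, themselves called higher, was the library left out. The number lower fell to 11 without Mit1, to 7 without Mit1, Sfl1 and Sok2, and to 0 when positions richer elsewhere were also left out, where 2 were higher. Without Mit1 the odds ratios turned to 1.02 for Flo8, 1.14 for Mfg1, 1.32 for Ste12 and 1.29 for Tec1, and none was called. Without Mit1, Sfl1 and Sok2 they were 2.02 for Flo8, 2.44 for Mfg1, 2.66 for Ste12 and 2.58 for Tec1, all called, and 1.78 for Nrg1 and 1.33 for Dig1, not called. With positions richer elsewhere also left out they were 1.22 for Flo8, 2.53 for Mfg1, 1.19 for Ste12, 0.99 for Tec1, 1.06 for Nrg1 and 2.58 for Dig1, with Mfg1 and Dig1 called. In each case the pool has fewer records upstream of FLO11 by construction. The last calls of Mfg1 and Dig1 also depend on the selection of positions by reads.

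With at least 2 reads, 1 library was called in the body in place of 0. Divided at 2000 bp, 1 library differed in its share in place of 3, and the odds ratios turned to 0.45 for Sok2 and 2.58 for Sfl1. With a 1200 bp window 3 of the 5 most alike genes were kept. The fullest step moved in Ste12 with each position counted once and in Flo8 and Tec1 with at least 2 reads. The log2 change of FLO11 RNA was -1.47 to -1.67 under the other pseudocounts and a median scaling, and the authors' deposited table gave 7 libraries at each threshold tried. The fits that leave out Mit1, Sfl1 and Sok2 together, and those that combine settings, were chosen after seeing the data. No paired analysis was possible because each group has 1 library.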
